A study of Rattus norvegicus with 6 samples.

Results

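The genes described here are 10 members of the YAP and TEAD pathway, measured as gene counts by RNA sequencing of cultured rat cells. They were chosen by symbol, as listed names among 18237 gene rows: the coactivators Yap1 and Wwtr1, the DNA-binding factors Tead1, Tead3 and Tead4, the inhibitors Amotl2 and Lats2, and the target genes Ankrd1, Ctgf and Cyr61. All 10 were found and all 10 passed the filter on low counts. The cells are labelled as myocardial cells and NRVM, which usually stands for neonatal rat ventricular myocytes, and the text on their culture gives embryonic myocardium as the origin. They were kept in DMEM with fetal bovine serum and treated with siRNA, 3 libraries with the control siNT and 3 with siMt2, directed at the metallothionein gene Mt2. For both groups the protocol text mentions dexamethasone, isobutylmethylxanthine and insulin, but does not state whether they were given here.

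YAP, encoded by Yap1, and TAZ, encoded by Wwtr1, are transcriptional coactivators that cannot bind DNA themselves and reach their target genes through TEAD factors. The Hippo kinases phosphorylate them and hold them in the cytoplasm, and dense culture, soft substrates and loss of actin tension are known to do the same. Ctgf, Cyr61, Ankrd1, Amotl2 and Lats2 are standard target genes, and the last pair feed back on the pathway, because their products restrain YAP. Heart muscle cells, cardiac fibroblasts and smooth muscle cells all use this pathway, and Ankrd1 is besides a gene of stretched muscle.

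Gene counts summed to between 2859759 and 6817777 per library, with the lowest total in siMt2 replicate 3. That library also differed most from its group, with a chi-square per gene of 3.39 and 3.59 against the other siMt2 libraries, where other pairs within a group had 2.00 to 2.26. Levels are given as CPM, counts relative to library size after TMM scaling in edgeR, on which 1 count was worth between 0.146 and 0.352 CPM. The targeted gene, Mt2a, stood at 90.7, 170 and 93.3 CPM under siNT, against 70.7, 87.3 and 142 CPM under siMt2. Its groups overlapped (log2 fold change -0.28, SE 0.42, edgeR adjusted p = 0.631), so groups are named by their labels. Of 10 cardiomyocyte markers, Nppa is not analysed here and Tnnt2 alone passed the filter, while Myh6, Actc1, Tnni3 and Myl7 had 9, 4, 3 and 6 counts over all 6 libraries. Smooth muscle markers are given with Ankrd1 and fibroblast markers with the stress fibre genes. Nothing in the labels says that replicates came from separate cultures, so p-values reflect the scatter of these libraries alone, possibly a technical scatter. In bulk RNA, fewer cells of a type and less RNA per cell cannot be told apart.

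The members did not move as one. In the libraries labelled siMt2, 5 of 10 were lower (Yap1, Amotl2, Lats2, Ctgf and Cyr61), 1 was higher (Ankrd1) and 4 did not pass (Wwtr1, Tead1, Tead3 and Tead4), at an edgeR adjusted p under 0.05. Among the 11726 genes tested, 25.1% were lower and 25.8% higher, 50.9% in all. The members' log2 fold changes, siMt2 over siNT throughout, ran from -0.90 to 0.83 with a median of -0.18, beside 4.90e-04 for all genes tested. Groups did not overlap for 6 of the 10 members and for 57.6% of all genes tested. Changes that passed and were at least 0.5 in size on the log2 scale were found for 3 members, Amotl2, Lats2 and Ankrd1, and for 27.9% of all genes tested. With so many genes changed across the transcriptome, the share of members that passed is close to the background, and what the members show is their individual sizes and directions.

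**Figure D1:**
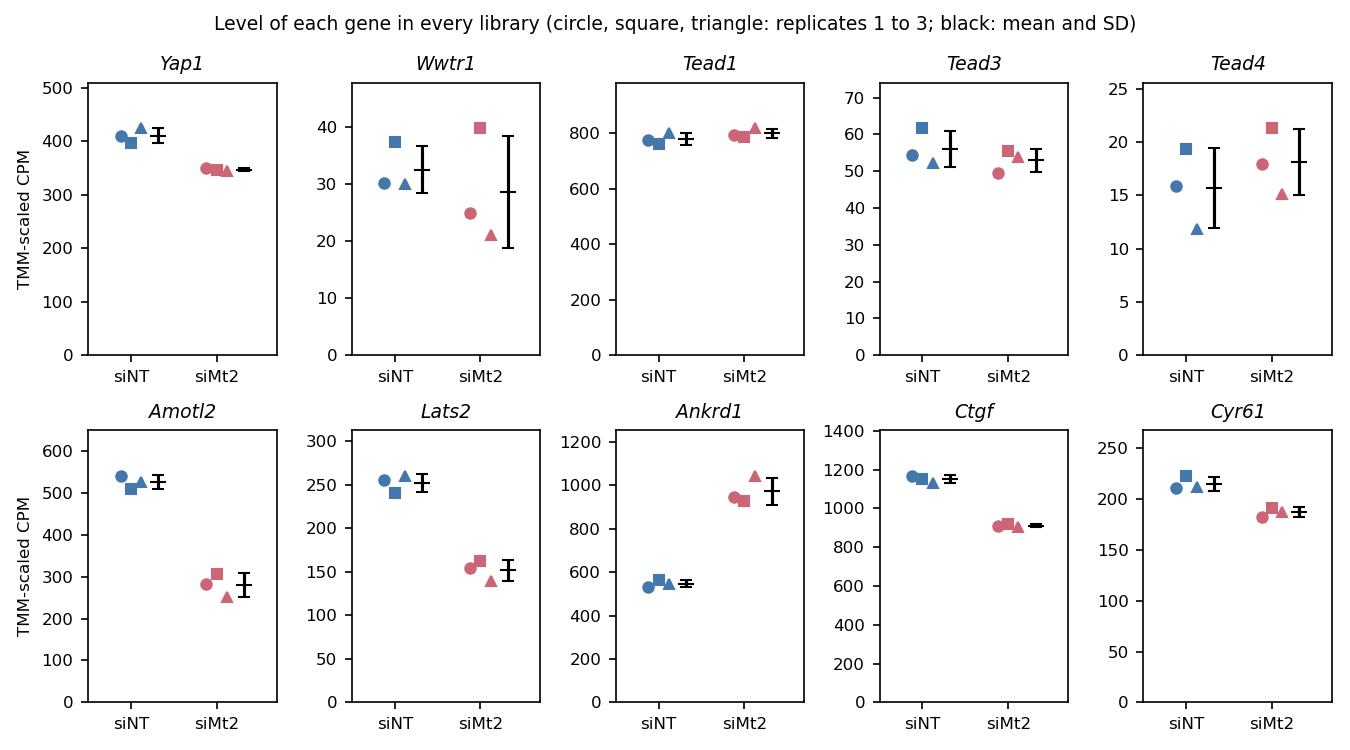
Level of each of the 10 genes in every library, in TMM-scaled CPM on axes that start at 0, with siNT in blue, siMt2 in red, a symbol for each replicate number, and the mean and SD in black. The siNT and siMt2 points are apart for Yap1, Amotl2, Lats2, Ankrd1, Ctgf and Cyr61, with Ankrd1 alone higher in siMt2, and they overlap for Wwtr1, Tead1, Tead3 and Tead4.

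Of the coactivators, Yap1 was slightly lower. It stood at 411, 397 and 424 CPM under siNT, against 350, 347 and 345 CPM under siMt2. Every siMt2 value lay below every siNT value. Means were 411 ± 13.8 and 347 ± 2.27 CPM (n = 3 each, SD). The difference on the log2 scale was -0.24 (SE 0.04, 95% interval -0.33 to -0.15, edgeR adjusted p = 1.27e-04), or 0.846 times the siNT level. A larger absolute log2 fold change was estimated, passing or not, for 61.5% of all genes tested.

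Wwtr1 gave 30.2, 37.3 and 30.0 CPM under siNT, against 24.8, 39.7 and 21.1 CPM under siMt2. The siMt2 group held both the highest and the lowest of the 6 values. On the log2 scale it differed by -0.16 (SE 0.20, edgeR adjusted p = 0.522). The 95% interval of -0.61 to 0.28 spans 0.657 to 1.21 times the siNT level. The siMt2 replicates scattered by 34.5% of their mean, against a counting error of 12.9% for the smallest Wwtr1 count, 60. The estimate depended on single libraries. Without siMt2 replicate 2, Wwtr1 passed as lower (log2 fold change -0.45, edgeR adjusted p = 0.0169). Without siMt2 replicate 1 or siMt2 replicate 3 it was close to unchanged (-0.032 and -0.038) and did not pass. The count ratio of Wwtr1 to Yap1 within a library does not depend on library scaling. On the log2 scale it averaged -3.67 ± 0.222 in siNT and -3.66 ± 0.471 in siMt2 libraries (SD, n = 3 each), with an exact two-sided permutation p of 0.9, where 0.1 is the smallest that 3 against 3 libraries allow.

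The TEAD factors, which carry YAP and TAZ to DNA, showed no change that passed in the 3 members. Tead1 stood at 776, 760 and 801 CPM under siNT, against 793, 787 and 817 CPM under siMt2. The groups overlapped and the estimate was narrow, with a log2 fold change of 0.035 (SE 0.04, edgeR adjusted p = 0.475). Its 95% interval reached from 0.968 to 1.08 times the siNT level. Of all genes tested, 94.0% had a larger absolute log2 fold change.

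Tead3 gave 54.4, 61.7 and 52.1 CPM under siNT, against 49.5, 55.6 and 53.9 CPM under siMt2, again overlapping (log2 fold change -0.08, SE 0.10, edgeR adjusted p = 0.505). Tead4 gave 15.9, 19.4 and 11.8 CPM under siNT, against 18.0, 21.3 and 15.1 CPM under siMt2 (0.25, SE 0.18, edgeR adjusted p = 0.276). Tead4 rests on 43 to 123 counts per library, and its 95% interval spans 0.910 to 1.55 times the siNT level. The values allow any change within that interval, none included. The siNT replicates scattered by 24.1% of their mean, against a counting error of 15.2% for the smallest Tead4 count, 43. The remaining gene of the family, Tead2, is not a member and did fall. It stood at 52.4, 64.1 and 50.0 CPM under siNT, against 39.6, 34.5 and 39.4 CPM under siMt2, without overlap (log2 fold change -0.54, SE 0.11, edgeR adjusted p = 4.40e-04). Within libraries, the log2 ratio of Tead3 to Tead1 differed by -0.12 between groups and that of Tead4 to Tead1 by 0.19. Their exact two-sided permutation p was 0.5 and 0.6, and 0.8 each when adjusted over the 4 ratios tested.

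Both inhibitors fell. Amotl2 encodes an angiomotin-like protein that binds YAP at cell junctions, and it stood at 541, 509 and 526 CPM under siNT, against 283, 306 and 251 CPM under siMt2. The groups lay far apart, with means of 525 ± 16.0 and 280 ± 28.0 CPM (SD, n = 3 each). On the log2 scale it fell by 0.90 (SE 0.06, 95% interval -1.02 to -0.78, edgeR adjusted p = 1.71e-10), to 0.535 times the siNT level, and 11.7% of all genes tested had a larger absolute log2 fold change.

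Lats2 encodes a kinase that phosphorylates YAP and TAZ directly. It stood at 256, 240 and 261 CPM under siNT, against 154, 162 and 139 CPM under siMt2, again without overlap. Means were 252 ± 10.6 and 152 ± 11.8 CPM (n = 3 each, SD). The difference on the log2 scale was -0.73 (SE 0.06, 95% interval -0.85 to -0.60, edgeR adjusted p = 3.26e-09), or 0.604 times the siNT level. For both genes siMt2 replicate 3, the shallowest library, was the lowest value. Without it the log2 fold changes were -0.84 for Amotl2 and -0.68 for Lats2.

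**Figure D2:**
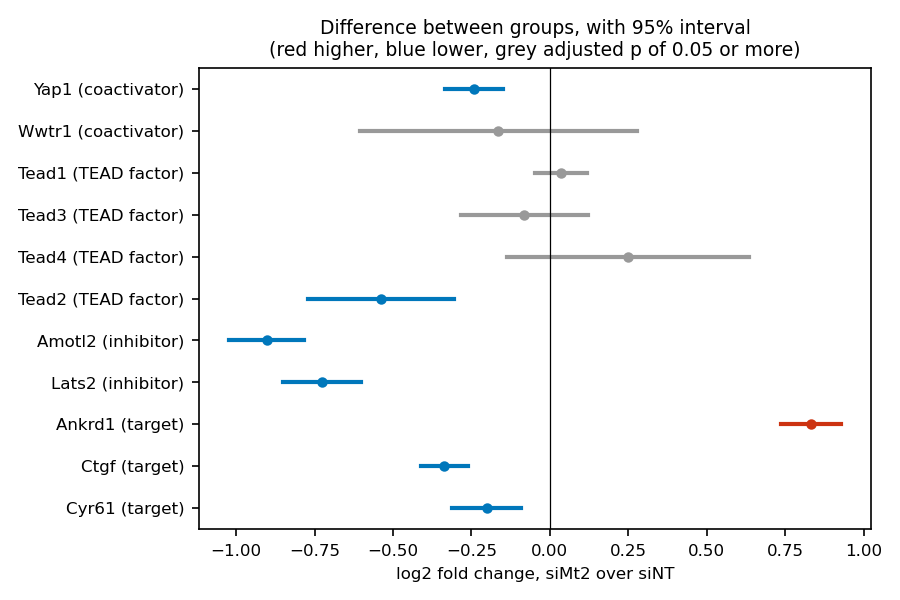
Log2 fold change of each member and of Tead2, siMt2 over siNT, as points with 95% intervals, coloured red where higher, blue where lower and grey where the edgeR adjusted p was 0.05 or more. Amotl2 (-0.90) and Lats2 (-0.73) lie furthest to the left, Ankrd1 (0.83) is the single red point, and the intervals of Wwtr1, Tead1, Tead3 and Tead4 cross 0.

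The target genes split. Ankrd1, which encodes a nuclear and sarcomeric ankyrin repeat protein, was the only member that rose. It stood at 532, 563 and 545 CPM under siNT, against 947, 928 and 1045 CPM under siMt2. Each siMt2 value was far above the siNT values, with means of 547 ± 15.8 and 973 ± 62.7 CPM (SD, n = 3 each). It rose by 0.83 on the log2 scale (SE 0.05, 95% interval 0.74 to 0.93, edgeR adjusted p = 8.75e-12), to 1.78 times the siNT level, where 13.8% of all genes tested had a larger absolute change. Some markers of muscle cells changed beside it. Smooth muscle markers, 7 of 8 present, summed to between 2323 and 2367 CPM under siNT, against between 4113 and 4210 CPM under siMt2. Acta2 (means of 1502 and 2626 CPM) and Tagln (331 and 1103 CPM) made up most of that sum. Of the smooth muscle markers, 5 were higher and 1, Pdgfrb, was lower (462 and 336 CPM), while Cspg4 did not pass. Those of cardiomyocytes, 9 of 10 present, summed to between 29.3 and 32.2 CPM under siNT, against between 51.3 and 63.7 CPM under siMt2, nearly all of it from Tnnt2. Those of skeletal muscle, 5 of 6 present, summed to between 22.9 and 26.6 CPM and between 28.0 and 28.5 CPM, with Myod1 higher and Myog lower. Their part in the rise of Ankrd1 was not tested.

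Ctgf and Cyr61 encode secreted matricellular proteins of the CCN family and are the targets most often used as a readout of YAP. Ctgf stood at 1169, 1152 and 1130 CPM under siNT, against 911, 918 and 904 CPM under siMt2. Its replicates were tight and the groups did not overlap, and the log2 difference was -0.34 (SE 0.04, 95% interval -0.41 to -0.26, edgeR adjusted p = 1.97e-07), or 0.792 times the siNT level. Cyr61 stood at 211, 223 and 212 CPM under siNT, against 182, 192 and 188 CPM under siMt2. It too was lower in every siMt2 library (-0.20 on the log2 scale, SE 0.05, 95% interval -0.31 to -0.09, edgeR adjusted p = 0.00316), or 0.869 times the siNT level. Larger absolute log2 fold changes were estimated for 48.8% of all genes tested in the case of Ctgf and for 67.4% in that of Cyr61. The log2 count ratio of Ctgf to Cyr61 went from 2.42 ± 0.0527 to 2.28 ± 0.0346 (SD, n = 3 each), without overlap between groups. Its exact two-sided permutation p was 0.1, the smallest possible here, and 0.4 adjusted over the 4 ratios.

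The sequence before the start site is shown for targets that fell, because TEAD factors bind the letters GGAATG, and Ctgf is known for such sites. Upstream windows of 250 bases were taken from RefSeq on assembly GRCr8, which is not the build of the counts, and were found for 6 of the 10 members (Ctgf and Cyr61 under their present symbols Ccn2 and Ccn1). Tead1, Tead4, Lats2 and Ankrd1 had no entry. Each sequence runs 5′ to 3′ toward the gene, with matches to GGAATG, or to its reverse complement CATTCC, in capitals. For Amotl2, whose window lies inside the annotated span of the gene, only the 30 bases around its match are given.
Ctgf, chr1:22624615-22624864, minus strand: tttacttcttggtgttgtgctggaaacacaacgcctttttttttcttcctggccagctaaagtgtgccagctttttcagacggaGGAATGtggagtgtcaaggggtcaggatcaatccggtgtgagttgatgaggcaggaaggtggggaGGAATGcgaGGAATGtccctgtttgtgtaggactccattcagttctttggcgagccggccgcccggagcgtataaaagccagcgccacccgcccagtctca
Cyr61, chr2:237225690-237225939, minus strand: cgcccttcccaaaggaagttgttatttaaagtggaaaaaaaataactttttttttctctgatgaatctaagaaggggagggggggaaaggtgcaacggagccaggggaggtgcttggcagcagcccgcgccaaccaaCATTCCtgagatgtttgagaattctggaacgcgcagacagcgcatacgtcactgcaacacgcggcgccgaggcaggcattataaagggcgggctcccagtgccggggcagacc
Amotl2, chr8:112182538-112182567, plus strand: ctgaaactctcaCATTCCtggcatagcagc

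The Ctgf window holds 3 matches, all on the strand of the gene, which begin 166, 101 and 92 bases before the start site. Cyr61 holds 1, beginning 113 bases before the start, and Amotl2 holds 1, beginning 76 bases before it, both as CATTCC. The Yap1 window has 1 match as well, and the windows of Wwtr1 and Tead3 have none, so 4 of 6 members hold a match. Among the other genes of the target signature described below, windows were found for 11 of 16, of which 1 holds a match. It is that of Nuak2, which did not pass (log2 fold change 0.13) and was named after its value was seen. The windows of Ccdc80, Axl and Fjx1, which rose, hold none, and neither does that of Gadd45a, which fell. F3 and Dock5, which also rose, had no window. Of 33469 RefSeq windows of this length, 12.1% hold at least 1 match on either strand and 0.902% hold at least 2. The AP-1 letters TGANTCA, which read the same on both strands (6.34% of all windows), and the CArG box bound by SRF (1.50% of all windows) were searched on both strands and had no match in the 6 windows. No motif overlapped another. Matches are letters in a window, not measured binding. Set beside the log2 fold changes, Ctgf with 3 matches had -0.34, Cyr61 with 1 had -0.20 and Amotl2 with 1 had -0.90.

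Ratios within a library compare targets without any library scaling. They were chosen after their values were seen, from genes already known to differ, and carry no test. Their separation therefore adds nothing to the results of the single genes. The log2 ratio of Ankrd1 to Amotl2 was -0.025, 0.15 and 0.051 in siNT and 1.74, 1.60 and 2.06 in siMt2 libraries, so the balance of these targets shifted by 1.74 on the log2 scale. That of Ctgf to Amotl2 went from a mean of 1.13 to 1.71 and that of Cyr61 to Lats2 from -0.23 to 0.30. Groups did not overlap in either case. Ctgf, Cyr61, Amotl2 and Lats2 all fell, so these latter ratios show unequal falls and not opposite directions.

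**Figure D3:**
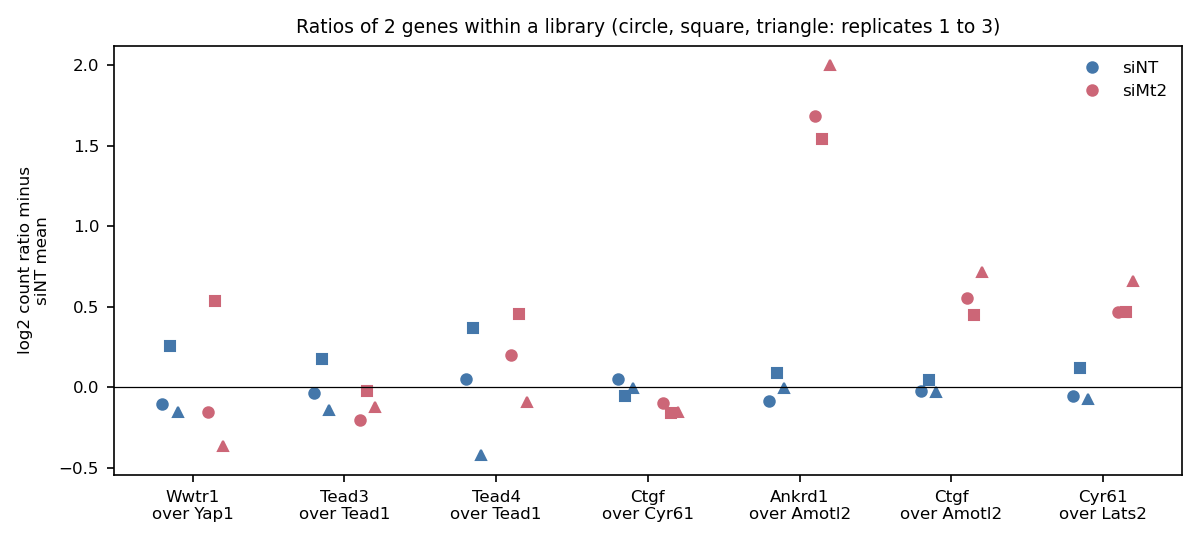
Log2 ratio of the counts of 2 genes within each library, less the mean of the siNT libraries, with siNT in blue, siMt2 in red and a symbol for each replicate number. The coactivator and TEAD ratios overlap between groups, Ctgf over Cyr61 is apart by 0.14, and Ankrd1 over Amotl2 is apart by 1.74.

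A published signature of 22 YAP and TAZ targets contains 5 of the members (Amotl2, Lats2, Ctgf, Cyr61 and Ankrd1). Of its 22 genes 20 were tested, of which 6 were higher, 6 lower and 8 did not pass, with a median log2 fold change of 0.045. For comparison, 25.8% of all genes tested were higher and 25.1% lower. The 16 signature genes that were neither members nor Ptpn14 (counted with the regulators) gave 5 higher and 1 lower of 14 tested, with a median log2 fold change of 0.11. Ccdc80, a matrix protein gene, had 1652, 1704 and 1679 CPM under siNT, against 3614, 3646 and 3953 CPM under siMt2 (log2 fold change 1.15, SE 0.04). The groups were far apart. Axl, a receptor tyrosine kinase gene, rose from 297 ± 14.1 to 432 ± 39.7 CPM (0.55, SE 0.06), and Fjx1 from 4.69 ± 0.618 to 10.4 ± 1.22 CPM (1.15, SE 0.24), the latter with only 19 counts in its smallest library. F3, the tissue factor gene, rose by 0.24 (SE 0.06), and Dock5, a guanine nucleotide exchange factor gene that was the last of the 5 and was named after its values were seen, rose by 0.36 (SE 0.10). The gene that fell was Gadd45a, a stress-induced growth arrest gene (-0.19, SE 0.05). None of these 6 genes had an edgeR adjusted p above 0.00402.

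Regulators of the pathway went both ways. Of 37 listed, 35 were found in the counts and 33 were tested (Wwc1 and Dchs1 were too low). Of these, 13 fell, 4 rose and 16 did not pass, with a median log2 fold change of -0.13. That is 39.4% lower and 12.1% higher, beside 25.1% and 25.8% of all genes tested. The share that passed, 51.5%, is close to the 50.9% of all genes tested. Tead2 and 3 genes whose proteins bind TEAD or YAP were lower, 4 of 4 in this role, beside 25.1% of all genes tested. The role leaves out Tead1, Tead3 and Tead4, which are counted with the members and did not pass. Vgll4, a cofactor that competes with YAP for TEAD, fell from 102 ± 4.02 to 45.7 ± 6.38 CPM (-1.13 on the log2 scale, SE 0.09). Vgll3, a cofactor of the same family, fell from 231 ± 4.82 to 125 ± 8.06 CPM (-0.89, SE 0.06). Ptpn14, a phosphatase that binds YAP and is itself in the target signature, fell from 514 ± 12.6 to 371 ± 19.6 CPM (-0.47, SE 0.05). For these 3 genes too the siNT and siMt2 values did not overlap, and the edgeR adjusted p was at most 5.08e-08.

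The relatives of Amotl2 fell with it: Amot from 140 ± 3.71 to 94.8 ± 3.48 CPM (-0.56 on the log2 scale, SE 0.06) and Amotl1 from 268 ± 12.3 to 225 ± 8.40 CPM (-0.26, SE 0.05). The kinase that is the relative of Lats2 did not pass. Lats1 stood at 154, 153 and 156 CPM under siNT, against 136, 150 and 137 CPM under siMt2 (-0.13, SE 0.06, edgeR adjusted p = 0.0623), without overlap between groups. The core kinase gene Stk3 rose from 27.8 ± 3.44 to 50.9 ± 4.40 CPM (0.89, SE 0.11), whereas its paralog Stk4 did not pass (-0.14, SE 0.08, edgeR adjusted p = 0.138). Mob1a, which encodes the partner of the LATS kinases, fell (-0.53, SE 0.06). Amot, Amotl1, Lats1, Stk4 and Mob1a were named after their values were seen.

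Of the other regulators, Map4k4, a kinase that can act on LATS, rose from 322 ± 10.3 to 423 ± 7.52 CPM (0.39 on the log2 scale, SE 0.04), and Stk25 (0.46, SE 0.10) and the large cadherin gene Fat4 (0.50, SE 0.17) also passed as higher. Ppp2r1a, the scaffold of the phosphatase that opposes the core kinases, fell from 364 ± 8.49 to 193 ± 5.45 CPM (-0.92, SE 0.05). The largest edgeR adjusted p here was 0.0197, that of Fat4, whose call was lost in 4 alternatives: in DESeq2 and without any of 3 libraries (siNT replicate 1, siNT replicate 3, siMt2 replicate 1). The plot of regulators shows every tested gene of the list by role.

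**Figure D4:**
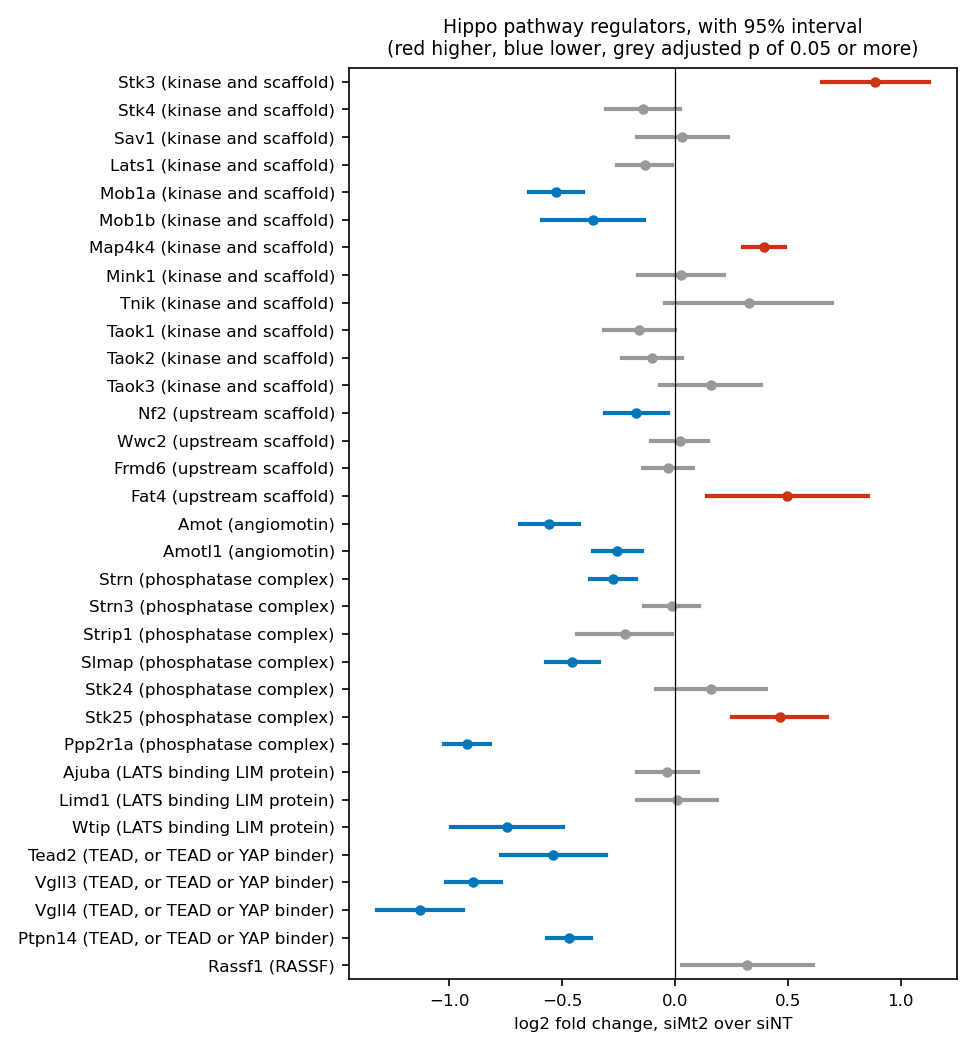
Log2 fold change of the 33 pathway regulators tested, siMt2 over siNT, as points with 95% intervals, ordered by role and coloured red where higher, blue where lower and grey where the edgeR adjusted p was 0.05 or more. Tead2, Vgll3, Vgll4, Ptpn14 and both angiomotin genes are blue, while the core kinases and their scaffolds hold red, blue and grey points.

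Because YAP follows actin tension and cell contact, genes of both were compared beside the members. Of 33 stress fibre and focal adhesion genes, 16 rose and 7 fell, with a median log2 fold change of 0.22. That is 48.5% higher and 21.2% lower, beside 25.8% and 25.1% of all genes tested. Among the 19 stress fibre genes 12 rose and 2 fell, and among the 14 focal adhesion genes 4 rose and 5 fell. On the log2 scale Tagln rose by 1.74 (SE 0.04), the myosin light chain gene Myl9 from 191 ± 2.66 to 550 ± 4.68 CPM (1.52, SE 0.04), Acta2 by 0.81 (SE 0.03) and Tpm1 by 0.62 (SE 0.04). Among the genes that fell were the actin crosslinker Flna, from 4875 ± 35.8 to 3843 ± 44.0 CPM (-0.34, SE 0.03), the integrin genes Itgav (-0.47, SE 0.05) and Itgb1 (-0.22, SE 0.04), and the nonmuscle myosin gene Myh10 (-0.43, SE 0.04). None of these 8 genes had an edgeR adjusted p above 4.68e-05. Several of the risers are smooth muscle markers as well. The summed level of the latter is given with Ankrd1. That of 10 fibroblast markers lay between 8237 and 8373 CPM under siNT, against between 10794 and 14719 CPM under siMt2, with 7 of 9 tested higher and 0 lower. Col1a1 made up most of the sum, with a mean of 4701 CPM under siNT and 8414, 8946 and 6024 CPM under siMt2. Col1a2 and Col3a1 did not pass. Dcn and Lum, both among the higher, had only 50 and 51 counts over all 6 libraries, and Pdgfra had 2. The part of these markers in the members' changes was not tested. Endothelial markers summed to between 76.0 and 85.3 CPM under siNT, against between 33.1 and 40.1 CPM under siMt2. Most of that sum came from Eng, which fell from a mean of 73.0 to 31.6 CPM. Vwf did not pass, Tie1 had 3 counts over all 6 libraries, and Pecam1, Cdh5, Kdr and Emcn are not analysed here. Leukocyte markers summed to between 22.7 and 27.3 CPM and between 14.2 and 17.7 CPM, with Cd14, the only gene of 5 that could be tested, lower and Ptprc at 2 counts over all 6 libraries.

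Of 16 cell contact genes listed, 14 were found in the counts and 12 were tested (Cdh2 and F11r were too low). Of those tested, 6 fell and 3 rose, with a median log2 fold change of -0.12. That is 50% lower and 25% higher, beside 25.1% and 25.8% of all genes tested. Cdh11, the cadherin of mesenchymal cells, fell from 73.1 ± 4.64 to 41.0 ± 0.413 CPM, by 0.83 on the log2 scale (SE 0.09). The catenin genes Ctnnb1 (-0.30, SE 0.05) and Ctnnd1 (-0.30, SE 0.05) fell as well. The gap junction gene Gja1 rose from 217 ± 8.17 to 277 ± 16.1 CPM (0.35, SE 0.05), and Ctnna1 (0.11, SE 0.04) and Afdn (0.16, SE 0.06) passed narrowly. The edgeR adjusted p was at most 3.83e-05 for Cdh11, Ctnnb1, Ctnnd1 and Gja1, 0.0242 for Ctnna1 and 0.0289 for Afdn. The last pair of calls was lost in DESeq2 and without siNT replicate 2, siNT replicate 3 or siMt2 replicate 2, and that of Afdn also with no filter and without siMt2 replicate 1. Cell density and substrate stiffness were not analysed here, and their part in these differences was not tested.

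**Figure D5:**
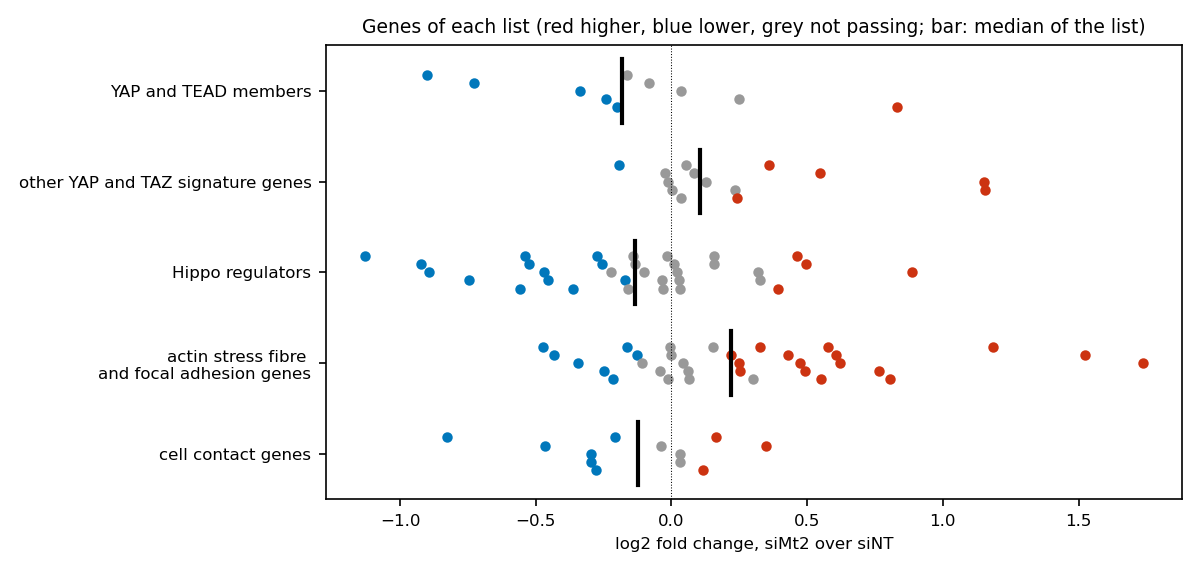
Log2 fold change of every tested gene of the 5 lists, siMt2 over siNT, coloured red where higher, blue where lower and grey where the edgeR adjusted p was 0.05 or more, with a black bar at the median of each list. The medians are -0.18 for the members, 0.11 for the other signature genes, -0.13 for the regulators, 0.22 for stress fibre and focal adhesion genes and -0.12 for cell contact genes.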

How the data were processed

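Gene counts of 6 RNA-seq libraries (3 siNT, 3 siMt2, grouped by sample title) were used. The authors deposited raw whole-number counts, 1 file per library. Build rn6, HISAT2 2.2.1, Trimmomatic 0.40, featureCounts, DESeq2 and limma appear in the submitters' processing notes, without settings. Strand use and the treatment of reads shared between genes are not stated there.

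The analysis used edgeR 4.0.16 in R 4.3.3: filterByExpr (minimum count 10), TMM, and the two-sided quasi-likelihood test with robust dispersions, Benjamini-Hochberg adjusted over 11726 genes (threshold 0.05). Totals of 2859759 to 6817777 counts set the precision. In the files, 25 rows named as dates stayed in (at most 0.278% of counts), and 0 columns lacked a sample. The chi-square per gene of 2 libraries of the same group was 2.00 to 3.59, above counting noise, so none was the same library deposited again. Ratios of counts within libraries used exact permutation over 20 assignments. The procedure was run on simulated counts with few genes changed and the same dispersion for every gene, a simpler setting than that of these data.

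Alternatives were library totals only, DESeq2 size factors, upper quartile scaling, no or a stricter filter, a replicate block, each library left out, DESeq2 1.42.0 and limma-voom 3.58.1. Members and lists were chosen with earlier results of these data known. Named are all members, Tead2, Mt2a and, per other list, up to 4 higher and 4 lower genes with the smallest adjusted p. One gene that this rule takes is not reported here.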

Additional observations from a re-analysis of the deposited data

How the results depend on the processing

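The 10 members kept their direction in all 14 alternatives each (140 values), and 139 stayed on the same side of the threshold. The exception was Wwtr1, which passed without siMt2 replicate 2. Counts of members higher and lower were 1 and 5 in every alternative except that one, with 1 and 6. Of 392 values of the 28 genes that the naming rule takes from other lists, 14 lost their call, those of Fat4, Ctnna1 and Afdn. The cell contact genes higher numbered 1 in DESeq2 in place of 3, and between 1 and 3 with a library left out. Upper quartile scaling moved the median of all genes by under 0.1, to 0.039. With a library left out, the log2 fold change of Mt2a lay between -0.56 and 0.052, the latter without siNT replicate 2. The ratio differences lay between -0.26 and 0.19 for Wwtr1 over Yap1 (negative without siNT replicate 1, siNT replicate 3 or siMt2 replicate 2), between -0.024 and 0.37 for Tead4 over Tead1 (negative without siNT replicate 3), between -0.19 and -0.027 for Tead3 over Tead1 and between -0.16 and -0.11 for Ctgf over Cyr61. The cause of these shifts was not tested. Of the members, Tead4 had the fewest counts, 43 to 123 per library. With the replicate number as a block, 2968 genes were higher and 2929 lower, in place of 3026 and 2945. Deviations of same-numbered libraries correlated by -0.0018, -0.060 and 0.023 across genes, and those of other pairs by -0.063 to 0.075. So no pairing by number was seen across all genes. These values cannot tell whether the numbers mark a shared culture, because counting noise alone lowers such correlations. The block changed no call of a member, but the SE of Wwtr1 went from 0.20 to 0.13.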
